A study of Homo sapiens with 6 samples.

Results

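Genes of the actin and myosin contractile apparatus were examined in LX-2 cells, an established human line derived from hepatic stellate cells, after silencing of OGT, which encodes the transferase for O-GlcNAc, a single-sugar modification of nuclear and cytosolic proteins. The 10 genes were chosen by their symbols out of 16907 gene symbols in the files. ACTA2, TAGLN, TPM1, TPM2, CALD1, CNN1 and CNN2 encode proteins of the thin filament, MYL9 and MYH9 myosin subunits and VCL an adhesion protein. The rule itself uses no measured value, but the genes were chosen with earlier results of these data known. Cells grown in 5% serum had been transfected with 20 nM of a control siRNA (siControl) or of siRNA against OGT (siOGT) and were harvested after 72 h. Each group held 3 libraries numbered as replicates 1 to 3, described in the study as independent experiments. LX-2 is a single immortalised line, and per the study's list of reagents the control siRNA and the pool of siRNAs against OGT came from different suppliers, so that an effect of OGT loss and a difference between these reagents cannot be told apart.

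As background, hepatic stellate cells store retinoids in the quiescent state and become contractile, collagen-producing myofibroblasts in injured liver. Contraction rests on stress fibres, in which non-muscle or smooth muscle myosin pulls on actin filaments that tropomyosin, caldesmon and calponin coat, while vinculin ties the filaments to integrin adhesions. Transcription of many of these genes is driven by serum response factor (SRF) with its actin-sensing cofactors MRTFA and MRTFB, and by transforming growth factor beta signalling. The smooth muscle actin encoded by ACTA2 is the usual marker of the myofibroblast state.

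Libraries held between 25996770 and 27966801 expected counts, that is, counts in which a read matching several genes is divided between them. OGT (chromosome X, 71533087 to 71575892, hg38) lay between 121 and 177 CPM, a count rate scaled to a common library size, in siControl and between 27.0 and 39.9 CPM in siOGT, so the libraries matched their labels. Of 10 markers of stellate cells and myofibroblasts 9 were in the files and 7 exceeded 1 CPM. They summed to between 4805 and 6313 CPM in siControl and between 4356 and 6176 CPM in siOGT. Most of this was COL1A1 and SPARC (2658 and 1466 CPM on average in siControl). DCN was absent, LRAT had too few counts to be tested, and LUM averaged 0.113 CPM in siControl. Of the 8 tested by edgeR, COL3A1, THY1, COL1A1 and PDGFRB were called lower (log2 fold changes -0.64, -0.41, -0.39 and -0.32) and SPARC higher (0.44), and their part in the values of the contractile genes was not tested. Of 8 smooth muscle markers, CNN1 among them, 5 exceeded 1 CPM, led by SMTN with 232 CPM in siControl, and the sums were 342 to 356 CPM in siControl and 307 to 340.0 CPM in siOGT. Of this list MYH11 and DES, which mark differentiated smooth muscle, had 0.0994 and 0.135 CPM in siControl, and LMOD1 was called lower. Of other cell types, hepatocyte markers summed to at most 4.46 CPM and endothelial markers to at most 8.19 CPM in any library. Leukocyte markers summed to between 131 and 159 CPM in siControl and between 174 and 212 CPM in siOGT. Nearly all of this was CD68, a lysosomal protein (137 and 188 CPM on average), whereas the defining leukocyte gene PTPRC had 0.536 and 0.520 CPM. The biliary list summed to between 88.7 and 126 CPM in siControl and between 93.1 and 127 CPM in siOGT, and SOX9 alone averaged 105 and 106 CPM. In bulk RNA, fewer cells of a kind and less RNA per cell cannot be told apart.

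Whether OGT silencing shifted the contractile genes together was asked first, by comparing siOGT with siControl libraries of the same replicate number. The genes did not share a direction, with 4 log2 fold changes above 0 and 6 below. Of the 10, TAGLN was called higher in siOGT, TPM2 and VCL were called lower, and 7 were not called. A gene is called where edgeR's paired fit over all 14853 genes gave it an adjusted p-value of 0.05 or less, and 25.4% of all genes tested were called, 12.7% higher and 12.7% lower. The share of 3 in 10 was thus near that of all genes, which includes genes below 10 CPM. No share was computed for genes as abundant as most of the 10. The median log2 fold change was -0.038 over the 10 genes and 0.0068 over all genes tested, and values ran from -0.37 for VCL to 0.37 for TAGLN. These calls rest on the pairing. Without the replicate number as a block, edgeR and DESeq2 each called 0 of the 10 genes, and 2 of them, TPM2 and VCL, had an unadjusted p-value under 0.05 in either tool.

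**Figure D1:**
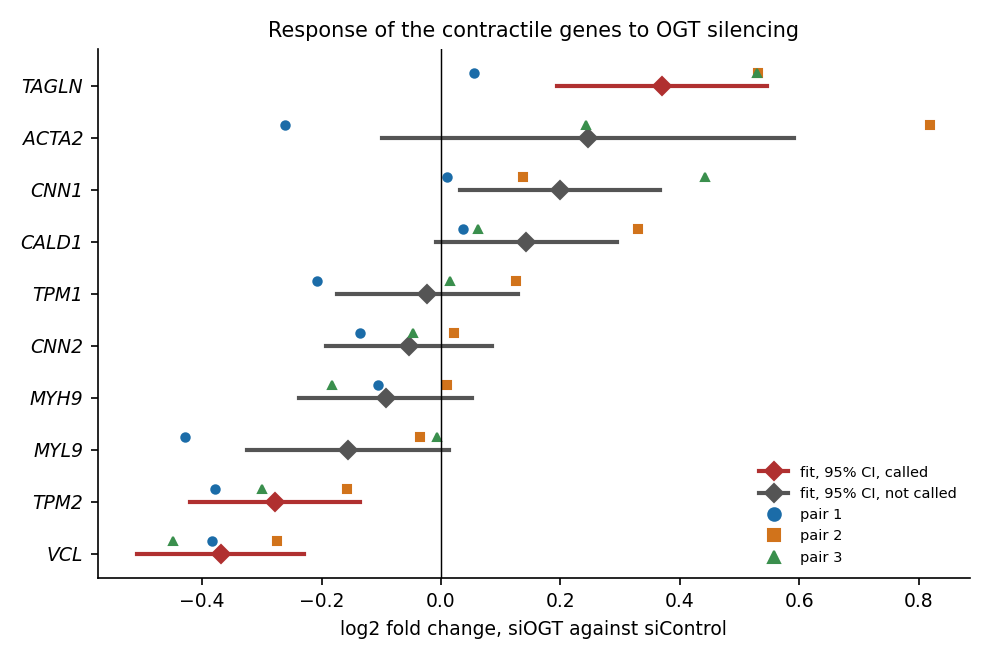
Log2 fold changes of siOGT against siControl for the 10 contractile genes, with the paired fit and its 95% confidence interval (diamonds and bars) and the log2 ratio of each of the 3 pairs (small symbols). VCL and TPM2 are below 0 in 3 of 3 pairs and TAGLN above 0 in 3 of 3 pairs, while the pairs of ACTA2 spread from -0.26 to 0.82.

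VCL (chromosome 10, 73995193 to 74121363, plus strand) encodes vinculin, which links actin filaments to talin in focal adhesions and bears load under tension. Its siControl libraries had 425, 356 and 351 CPM and its siOGT libraries 326, 294 and 257 CPM in the order of replicates 1 to 3. Every siOGT library lay below every siControl library. VCL fell by 22.6% in siOGT (log2 fold change -0.37, SE 0.066, with a 95% confidence interval of -0.51 to -0.23 and an edgeR adjusted p-value of 6.31e-04) and was lower in 3 of 3 pairs. It was the contractile gene with the largest share of its variance carried by the group, at 66.2%. DESeq2 without the block gave an adjusted p-value of 0.0557. Over 11.1% of its exonic bases VCL overlaps AP3M1 on the opposite strand. AP3M1 averaged 81.4 CPM in siControl and 74.2 CPM in siOGT without being called (log2 fold change -0.14, edgeR adjusted p-value 0.135). Although counting used strand, its part in the value of VCL was not tested.

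TPM2 (chromosome 9, 35681992 to 35690056, minus strand) encodes beta-tropomyosin, a coiled coil that lies along the actin filament and sets the access of myosin. It had 433, 340.0 and 348 CPM in siControl and 333, 305 and 283 CPM in siOGT. As for VCL, the groups did not overlap, and the highest siOGT library, that of replicate 1, was below the lowest siControl library, that of replicate 2. TPM2 fell by 17.6% and in 3 of 3 pairs (log2 fold change -0.28, SE 0.068, with a 95% confidence interval of -0.42 to -0.14 and an edgeR adjusted p-value of 0.00585). The call was lost without replicate 1 (log2 fold change -0.23, edgeR adjusted p-value 0.152). Groups did not overlap for 23.9% of all genes tested, against these 2 of 10.

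The start regions of both genes that fell are shown with that of CNN2, which was not called, because binding sites of SRF and of TEAD factors are the known inputs at such promoters. Each window covers 250 bases before and 50 bases after a RefSeq start (GRCh38.p14), written 5′ to 3′ on the gene's strand. Capitals mark the CArG box, the site of SRF, or the MCAT element, the site of TEAD factors. The CArG box was searched only in its strict form CCWWWWWWGG, with W for A or T. The letters of the MCAT element are CATTCC on one strand and GGAATG on the other.

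VCL, chr10:73997866-73998165, plus strand: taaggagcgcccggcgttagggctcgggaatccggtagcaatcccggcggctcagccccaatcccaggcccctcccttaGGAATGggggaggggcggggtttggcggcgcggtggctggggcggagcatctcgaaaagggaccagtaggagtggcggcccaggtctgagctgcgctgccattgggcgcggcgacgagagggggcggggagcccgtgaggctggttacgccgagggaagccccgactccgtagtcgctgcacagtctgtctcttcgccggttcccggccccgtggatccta
TPM2, chr9:35690007-35690306, minus strand: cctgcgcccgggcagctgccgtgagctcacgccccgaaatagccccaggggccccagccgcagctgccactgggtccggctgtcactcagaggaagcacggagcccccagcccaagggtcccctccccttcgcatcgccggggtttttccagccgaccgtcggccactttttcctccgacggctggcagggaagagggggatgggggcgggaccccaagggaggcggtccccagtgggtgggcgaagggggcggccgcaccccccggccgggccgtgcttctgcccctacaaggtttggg
CNN2, chr19:1026358-1026657, plus strand: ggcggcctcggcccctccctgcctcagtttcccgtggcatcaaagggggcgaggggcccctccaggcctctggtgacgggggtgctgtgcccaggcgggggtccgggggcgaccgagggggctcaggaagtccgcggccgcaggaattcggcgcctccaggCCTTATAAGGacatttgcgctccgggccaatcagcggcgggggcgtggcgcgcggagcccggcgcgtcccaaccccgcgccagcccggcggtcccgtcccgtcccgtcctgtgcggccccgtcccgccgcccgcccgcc

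The VCL window held an MCAT element starting at position -171 from the RefSeq start, the CNN2 window held a CArG box at position -89, and neither motif was found in this TPM2 window. In all, 13 windows of 8 of the 10 genes were listed, and TAGLN and MYL9 were not among them. A CArG box of the strict form was found in 1 of the 13 windows and in 1.29% of all 35116 windows. Looser forms were not counted, such as CCCTATATGG and CCTTGTTTGG, which both stand in an ACTA2 window. An MCAT element was found in 5 of the 13 and in 14.0% of all windows. ACTA2, CALD1 and MYH9 had the other windows with an MCAT element. These are matches of letters, and no binding was measured in these libraries.

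TAGLN (chromosome 11, 117199370 to 117207464, plus strand) encodes transgelin or SM22-alpha, an actin-bundling protein of smooth muscle and a widely used target gene of SRF. Its siControl libraries had 371, 176 and 145 CPM and its siOGT libraries 385, 255 and 209 CPM. Replicate 1 was high in both groups, and the groups overlapped. Within pairs TAGLN was higher in siOGT in 3 of 3, with log2 ratios of 0.055, 0.53 and 0.53, so that the rise was seen in replicates 2 and 3 and hardly in replicate 1. The fit gave a rise of 29.2% (log2 fold change 0.37, SE 0.084, with a 95% confidence interval of 0.19 to 0.55 and an edgeR adjusted p-value of 0.00362). Of the variance of TAGLN in log2 CPM, 82.7% lay between replicates and 12.7% between groups, shares that are not directly comparable as replicates outnumber groups. The value without the block was 0.30 with an edgeR adjusted p-value of 0.681. TAGLN shares 34.1% of its exonic bases with PCSK7 on the opposite strand. PCSK7, a proprotein convertase, was itself called higher (log2 fold change 0.42, edgeR adjusted p-value 2.43e-04), from 54.6 to 73.3 CPM, and although counting used strand, its part in the value of TAGLN was not tested. An overlap of 38.1% was with an uncharacterised transcript on the same strand, which was not matched to a row of the files and which strand does not separate from TAGLN.

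ACTA2 (chromosome 10, 88935074 to 88991339, minus strand), encoding alpha smooth muscle actin, was the least abundant of the 10 genes. It had 259, 123 and 143 counts in siControl and 218, 231 and 163 counts in siOGT, or 9.69, 4.83 and 5.12 CPM against 8.07, 8.58 and 6.08 CPM. The groups overlapped, and the highest library was siControl 1. Pairs went both ways, with log2 ratios of -0.26, 0.82 and 0.24. The log2 fold change of 0.25 was not called, and its 95% confidence interval ran from -0.098 to 0.59 (edgeR adjusted p-value 0.2995). It was 0.54 without replicate 1 and -0.032 without replicate 2, and neither value was called. The exact Poisson interval of the siControl 2 count was 102 to 147 and that of siControl 1 was 228 to 293, so the spread between these control libraries exceeded counting error, which is all such intervals cover. Of its exonic bases ACTA2 shares 29.1% with ACTA2-AS1 on the opposite strand and 7.12% with a long non-coding RNA on its own strand, which counting by strand does not separate, and neither was matched to a row of the files. It shares 6.88% with FAS on the opposite strand, which had 5.03 and 3.73 CPM on average and was not called (edgeR adjusted p-value 0.0560).

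**Figure D2:**
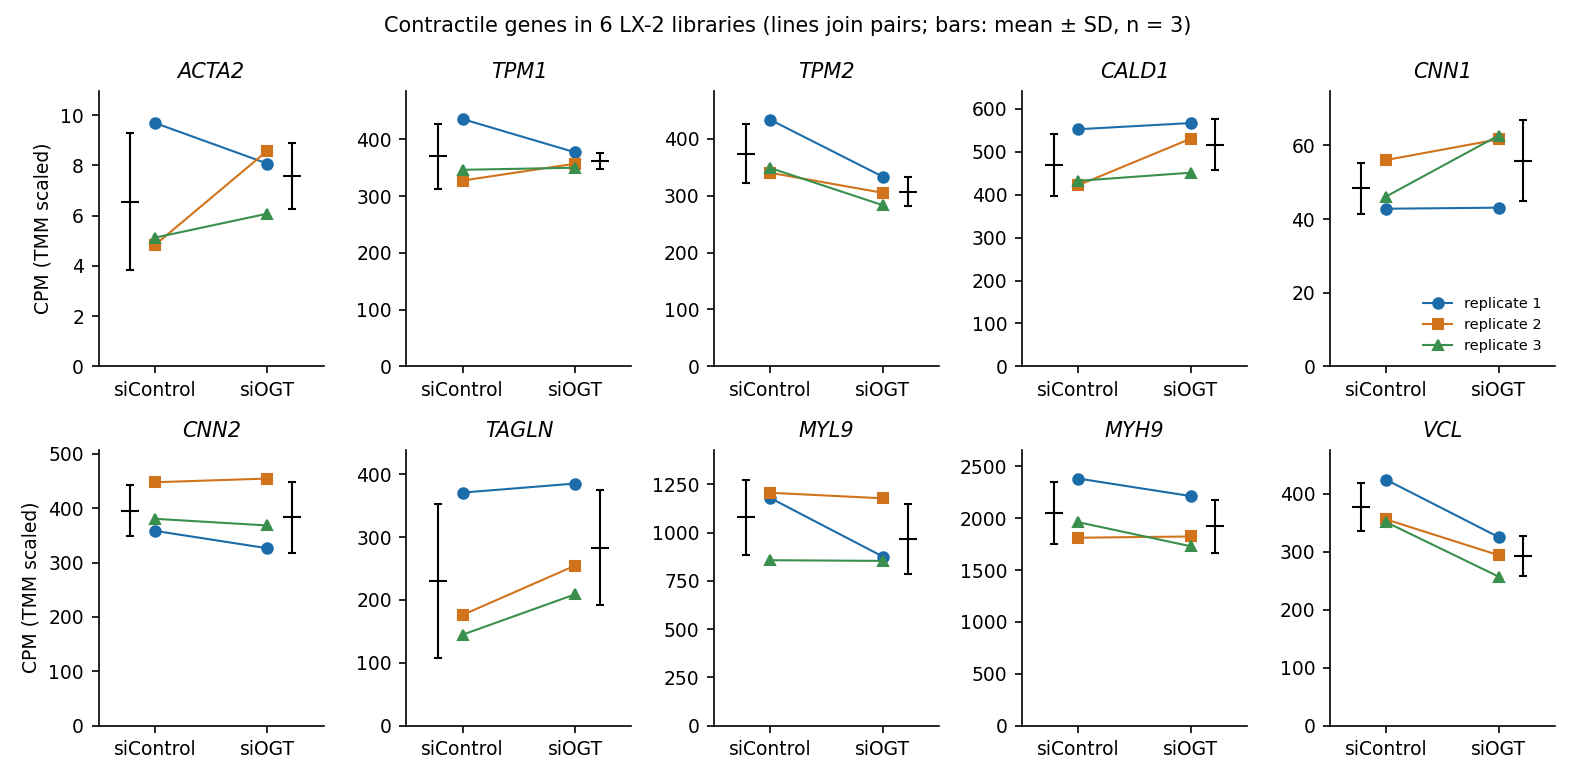
CPM (TMM scaled) of each contractile gene in the 6 libraries, with lines joining the siControl and siOGT library of a replicate and black bars for the group mean ± SD (n = 3). All 3 lines fall for VCL and TPM2 and rise for TAGLN, whose replicate 1 (371 and 385 CPM) lies above both other replicates in both groups, and the lines of ACTA2 cross.

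The calponins bind actin and calmodulin and slow the actomyosin ATPase. CNN1 (chromosome 19, 11538767 to 11550323, plus strand), basic calponin of differentiated smooth muscle, had 42.8, 56.0 and 46.1 CPM in siControl and 43.1, 61.6 and 62.7 CPM in siOGT. It was higher in 3 of 3 pairs, by 0.0100, 0.14 and 0.44, but the first of these values is close to 0. The log2 fold change of 0.20 (95% confidence interval 0.031 to 0.37) was not called (edgeR adjusted p-value 0.0772), and it was called without the filter on low counts (0.0438). Without replicate 3 the value was 0.070 (edgeR adjusted p-value 0.535). CNN2 (chromosome 19, 1026586 to 1039068, plus strand), the calponin of non-muscle cells, had 358, 448 and 380.5 CPM in siControl and 326, 455 and 368 CPM in siOGT. Its groups nearly coincided, with a log2 fold change of -0.053 and a 95% confidence interval of -0.19 to 0.086.

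TPM1 (chromosome 15, 63042620 to 63071915, plus strand) encodes alpha-tropomyosin and CALD1 (chromosome 7, 134744252 to 134970729, plus strand) caldesmon, which blocks myosin binding on the filament until it is phosphorylated. TPM1 had 435, 327 and 346 CPM in siControl and 377, 357 and 349.8 CPM in siOGT. The siOGT libraries lay closer together than the siControl libraries, at 361 ± 14.0 against 370 ± 57.8 CPM (SD, n = 3 each), a difference in spread that was not tested. Its log2 fold change was -0.023 (95% confidence interval -0.17 to 0.13). It was the one contractile gene with divided reads, its expected counts holding decimals in 6 of 6 libraries. CALD1 had 552, 422 and 432 CPM in siControl and 567, 530.2 and 451 CPM in siOGT. It was higher in 3 of 3 pairs, by 0.037, 0.33 and 0.062, and was not called (log2 fold change 0.14, 95% confidence interval -0.0089 to 0.29, edgeR adjusted p-value 0.161). Without replicate 2 the value was 0.047 (edgeR adjusted p-value 0.772).

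The myosin genes had the highest CPM of the set, a scale that does not account for gene length. MYL9 (chromosome 20, 36541497 to 36551447, plus strand) encodes the regulatory light chain whose phosphorylation starts contraction, and MYH9 (chromosome 22, 36281280 to 36388010, minus strand) the heavy chain of non-muscle myosin IIA. MYL9 had 1179, 1207 and 858 CPM in siControl and 876, 1178 and 854 CPM in siOGT. Its low values were replicate 3 in both groups and replicate 1 in siOGT, and the log2 ratio was -0.43 in pair 1 but -0.035 and -0.0061 in pairs 2 and 3. The log2 fold change of -0.16 was not called (95% confidence interval -0.33 to 0.013, edgeR adjusted p-value 0.169). Without replicate 3 it was -0.24 and called (edgeR adjusted p-value 0.0474), and without replicate 1 it was -0.022 (0.930). MYH9 had 2384, 1813 and 1963 CPM in siControl and 2215, 1825 and 1730.4 CPM in siOGT. Its log2 fold change was -0.093 (95% confidence interval -0.24 to 0.053, edgeR adjusted p-value 0.361), lower in 2 of 3 pairs.

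Ratios of 2 genes within a library do not depend on how libraries are scaled, and 5 were computed, chosen after the values had been seen. On the log2 scale the ratio of TPM2 to TPM1 was -0.0078, 0.056 and 0.0095 in siControl and -0.18, -0.23 and -0.31 in siOGT. The 2 tropomyosins were thus about equally counted in every control library, and TPM2 was the lower in every siOGT library, with a difference of -0.26 ± 0.076 (SD of 3 pairs). The ratio of CNN1 to CNN2 was higher in siOGT by 0.25 ± 0.21 (SD of 3 pairs), and its groups did not overlap either. For both ratios the two-sided exact sign-flip permutation test over the 3 pairs gave a p-value of 0.25, the smallest that 3 pairs allow (0.31 adjusted over the 5 ratios). Ignoring the pairing, the exact permutation p-value was 0.10, the smallest that 3 against 3 libraries allow (0.25 adjusted). The ratio of TAGLN to VCL was higher by 0.44, 0.81 and 0.98 in the 3 pairs, yet the groups overlapped because replicate 1 was high in both (exact permutation p-value 0.25 paired and 0.30 unpaired). TAGLN relative to its paralog TAGLN2 was higher by 0.34, 0.89 and 0.46 (exact permutation p-value 0.25 paired and 0.30 unpaired). The ratio of MYL9 to MYH9 moved by -0.32, -0.045 and 0.18 in the 3 pairs, with no common sign.

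How far the contractile genes varied between replicates was examined next. Averaged over both groups, they differed between the 3 replicates in 9 of 10 genes (edgeR, adjusted p-value of 0.05 or less for the replicate term), and TPM1 had 0.0763. Among all genes tested 23.6% were called in this way. That share includes genes below 10 CPM, and none was computed for genes as abundant as most of the 10, so the shares are not directly comparable. The replicate number carried between 31.3% (VCL) and 94.1% (CNN2) of a gene's variance in log2 CPM, against between 0.74% (TPM1) and 66.2% (VCL) for the group. There are more replicates than groups, which alone gives the replicate number a larger share, so these shares are not directly comparable. TAGLN spread the most, with replicate means 1.12 apart on the log2 scale (edgeR adjusted p-value of the replicate term 2.05e-06). Replicate 1 lay above the mean of the 3 replicates for TAGLN by 0.65, for ACTA2 by 0.37 and for MYH9 by 0.22, and it was also the highest replicate for CALD1, TPM2, VCL and TPM1. It was the lowest for CNN1, at -0.26, and for CNN2, at -0.18, so the calponins went against the other filament genes. For MYL9 replicate 1 was at the mean and replicate 3 was the lowest, at -0.24. The range of the 3 pairs' log2 ratios had a median of 0.31 over the 10 genes, against 0.21 over the 9620 genes whose mean reached 10 CPM.

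**Figure D3:**
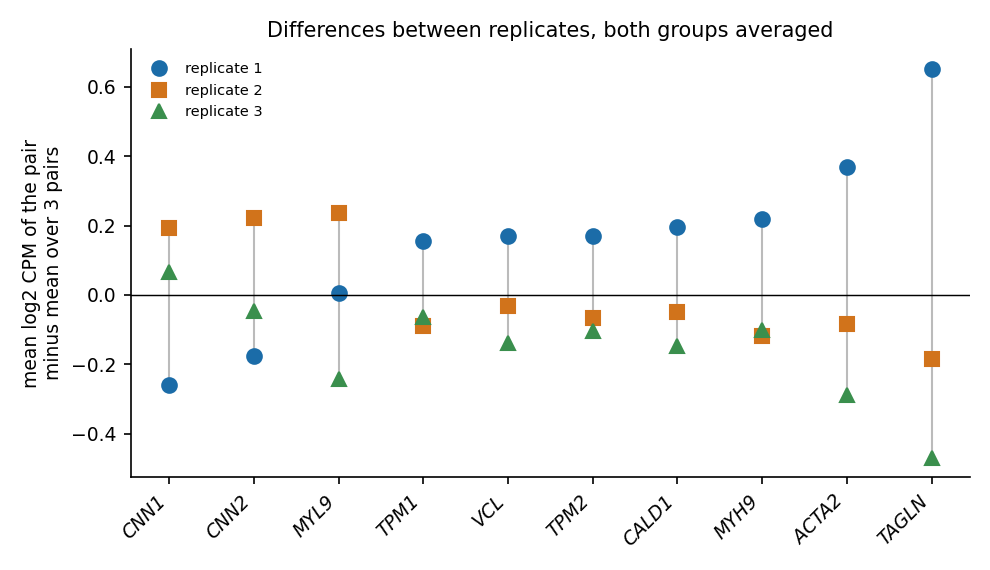
Mean log2 CPM of each replicate (siControl and siOGT averaged) minus the mean over the 3 replicates, for the 10 contractile genes ordered by replicate 1. Replicate 1 is the lowest for CNN1 and CNN2 and the highest for 7 genes, by up to 0.65 for TAGLN.

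Levels of the genes among themselves were compared per length. Per kb of merged exons (GENCODE 44), siControl libraries held 385 ± 69.2 CPM per kb of MYL9, above MYH9 with 121 ± 17.4 CPM per kb (SD, n = 3 each). MYH9, TPM2 (117 ± 16.2) and CNN2 (109 ± 12.8) did not differ beyond their spread. CALD1 followed with 47.9 ± 7.41 CPM per kb, and its neighbours VCL (37.8 ± 4.10) and TAGLN (35.2 ± 18.7) overlapped within their SD. TPM1 had 25.1 ± 3.93, CNN1 17.0 ± 2.43 and ACTA2 1.16 ± 0.484 CPM per kb. The place of TPM1 depended on the length used, and it moved from rank 8 to rank 3 of the 10 when its canonical transcript of 1217 bases replaced 14700 bases of merged exons. MYH9 moved from rank 2 to rank 4. MYL9 stayed first and ACTA2 last with either length, but per canonical transcript MYL9 (388 ± 69.7) and TPM2 (314 ± 43.2) overlapped within their SD. ACTA2 stood at percentile 27.6 of 14060 genes with a length per merged exons, and at percentile 42.5 per canonical transcript.

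**Figure D4:**
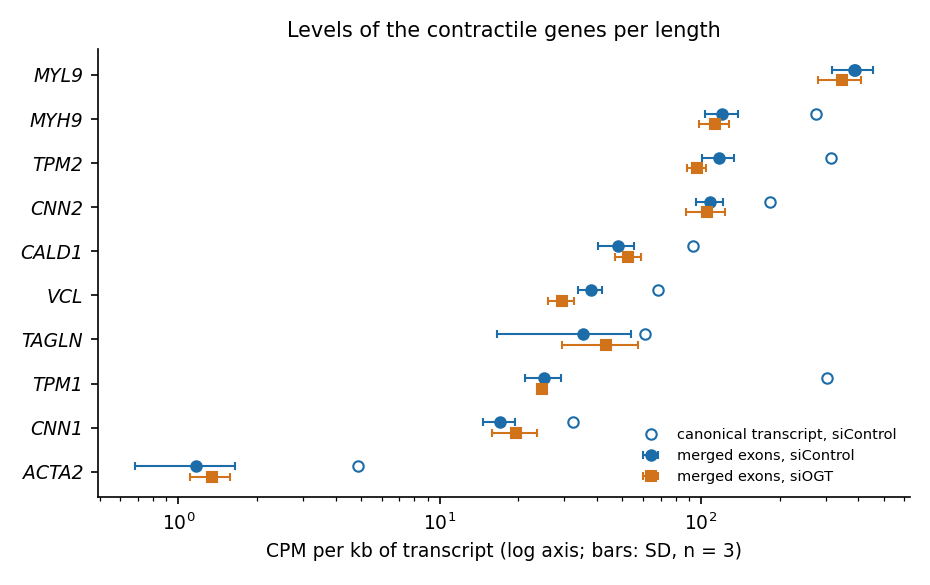
Level of each contractile gene in CPM per kb (log axis), as group mean ± SD (n = 3) per merged exons and, as open circles, the siControl mean per canonical transcript. MYL9 is highest (385 CPM per kb in siControl) and ACTA2 lowest (1.16 CPM per kb), and TPM1 shifts most with the choice of length.

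Genes that act with the contractile set were then read from the same fit, in 4 lists holding 73 genes tested. The lists were chosen with earlier results of these data known, so their shares are not independent of the data. Of the 73 genes, 4 were called higher (5.48%) and 20 lower (27.4%), against 12.7% in each direction over all genes. The shares over all genes include genes below 10 CPM. None was computed for genes as abundant as most of the 73, so the shares are not directly comparable. The median log2 fold change of the 73 genes was -0.078. Without the replicate block edgeR called 0 of them (16 at an unadjusted p-value under 0.05) and DESeq2 called 6, and without replicate 1 edgeR called 3 higher and 5 lower. Among 25 other actins, myosins and filament proteins 8 were called lower and 0 higher by edgeR, with a median log2 fold change of -0.12. The lowest were CSRP1, a LIM protein that binds alpha-actinin (log2 fold change -0.47 and edgeR adjusted p-value 1.01e-04), and LMOD1, an actin nucleator of smooth muscle (-0.45). FLNA, which crosslinks actin filaments at the cortex, had a siControl mean of 5043 ± 210.1 CPM and a siOGT mean of 3732 ± 457 CPM (SD over 3 libraries), and it fell by 0.44 on the log2 scale (edgeR adjusted p-value 8.75e-04), with all 3 siOGT libraries below all siControl libraries. The call of LMOD1 was lost without replicate 1 (0.0645).

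Of 13 partners of vinculin at focal adhesions, 4 were called lower and 1 higher, with a median of -0.033. TNS1 (tensin), VASP, which extends actin filaments at adhesions, and TLN1 (talin, which vinculin binds directly) fell, with log2 fold changes of -0.42, -0.38 and -0.25. FERMT2, encoding the integrin activator kindlin-2, rose in 3 of 3 pairs from a mean of 213 ± 23.5 to one of 285 ± 24.7 CPM (SD over 3 libraries, log2 fold change 0.42 with an edgeR adjusted p-value of 1.43e-04). The call of TLN1 was lost without replicate 1 (0.193).

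Of 18 genes of RhoA signalling and myosin phosphorylation, 5 were called lower and 2 higher, with a median of -0.071. RHOB rose from 125 ± 44.8 to 190.1 ± 48.5 CPM (SD, n = 3 each, log2 fold change 0.64, edgeR adjusted p-value 3.31e-05) and RND3, which opposes RhoA, from 112 ± 21.8 to 168 ± 39.5 CPM (log2 fold change 0.58). The 3 lowest called were ARHGEF11 and ARHGEF12, exchange factors for RhoA, and LIMK1, the kinase that inactivates cofilin, with log2 fold changes of -0.25, -0.23 and -0.23. The calls of all 3 were lost without replicate 1 (edgeR adjusted p-values 0.0503, 0.1196 and 0.0917 for ARHGEF11, ARHGEF12 and LIMK1), and that of ARHGEF12 also without replicate 3 (0.0608).

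Among 17 tested genes of SRF, MRTF and transforming growth factor beta control, 3 were called lower and 1 higher, with a median log2 fold change of 0.0091. Over all genes tested 25.4% were called, so this list held no larger share of called genes. SRF itself had a log2 fold change of -0.14 (95% confidence interval -0.28 to 0.0025, edgeR adjusted p-value 0.143). MRTFA and MRTFB had 0.0095 and -0.057, and both intervals included 0. TGFBR1, the type I receptor, TGFB1, its ligand, and FHL2, an SRF cofactor, fell, with log2 fold changes of -0.30, -0.25 and -0.22. SMAD7, which inhibits the receptor, rose from a mean of 6.35 ± 0.779 to one of 9.08 ± 2.02 CPM (SD over 3 libraries, log2 fold change 0.50 with an edgeR adjusted p-value of 0.0143). The calls of FHL2 and SMAD7 were also lost with DESeq2 with the block, at adjusted p-values of 0.0636 and 0.0812, and those of FHL2, SMAD7 and TGFBR1 without replicate 1 (edgeR adjusted p-values 0.214, 0.248 and 0.0630). Those of FHL2 and TGFB1 were lost without replicate 2 (0.0636 and 0.0591), and that of SMAD7 without replicate 3 (0.0517).

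**Figure D5:**
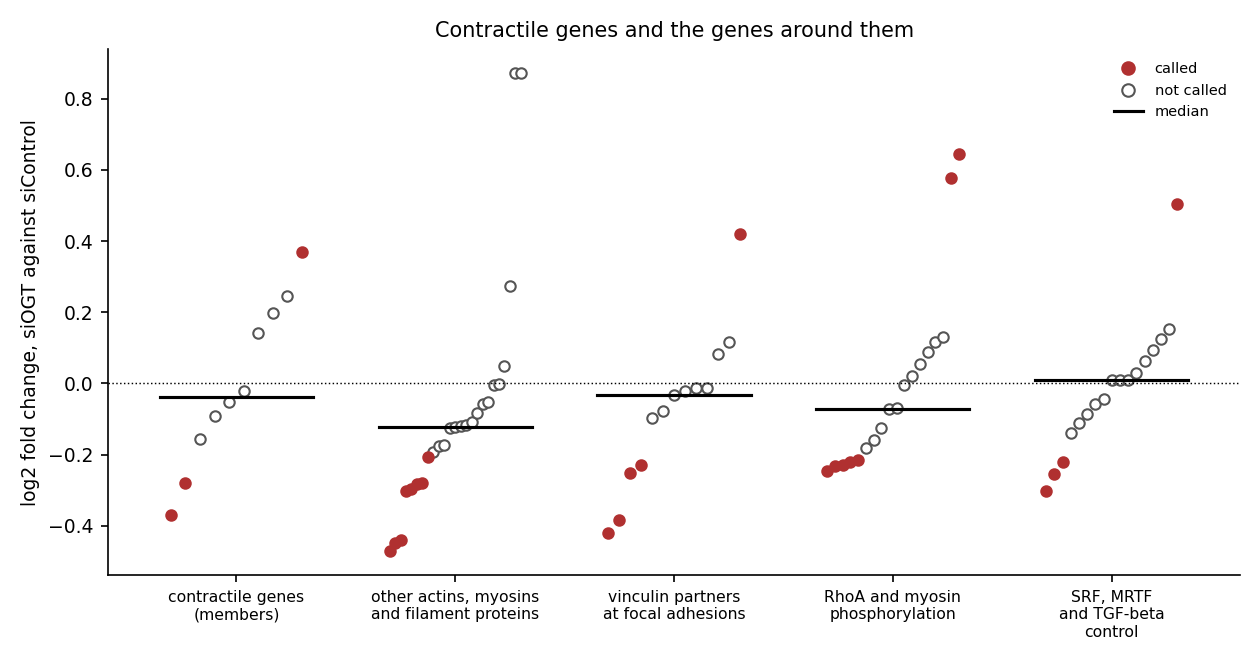
Log2 fold changes of siOGT against siControl for the 10 contractile genes and 4 lists of genes around them (filled symbols: called by edgeR with an adjusted p-value no higher than 0.05; black bars: medians). The other actins, myosins and filament proteins have 8 genes called lower and 0 higher, and the 2 open symbols near 0.87 are ACTA1 and MYH11, which are close to 0 CPM.

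The genes whose profile over the 6 libraries was nearest to that of ACTA2, by Euclidean distance of centred log2 CPM among 9620 genes, were TMEM178B, GVQW3, C2CD3, GATD3A and LOC107986794, at distances of 0.40, 0.42, 0.46, 0.47 and 0.47. None of the other contractile genes was among them, which so few places among 9620 genes made likely in any case. The choice used the siControl and siOGT libraries together, so a change like that of ACTA2 is built into it. The fold changes and p-values of these nearest genes are thus no separate evidence of an effect. GVQW3 and LOC107986794 were called higher, at 0.30 and 0.35 on the log2 scale (edgeR adjusted p-values 0.0431 and 0.00234), and the call of GVQW3 was lost without replicate 2 (0.218), without replicate 3 (0.140) and with DESeq2 with the block (0.192). C2CD3, which encodes a centriole protein, had 315, 181 and 187 CPM in siControl and 323, 229 and 213 CPM in siOGT, so that, as for ACTA2, replicate 1 of siControl was well above both other control libraries. GATD3A has a near-identical copy in the genome and its value is uncertain.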

How the data were processed

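RNA was measured by sequencing in 6 libraries of LX-2 cells (3 siControl, 3 siOGT), grouped and numbered as their labels give. The authors prepared stranded libraries after oligo-dT enrichment, aligned paired-end reads to hg38 with Bowtie2 (version 2.3.5.1, per the submitters' processing notes) and counted per gene with RSEM (version 1.3.1) with the strand taken into account. For each library the authors deposited expected counts without normalization. The authors' own comparison (DESeq2 version 1.36.0: mean, log2 fold change, statistic and p-values) was not used.

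Expected counts were rounded, 14853 genes whose total over the 6 libraries reached 10 were kept, and libraries were scaled with TMM factors (0.979 to 1.02). The quasi-likelihood F test of edgeR 4.0.16 (R 4.3.3), two-sided, was fitted over all genes with the replicate number as a block, as the study paired its samples, with Benjamini-Hochberg adjustment. SE and confidence intervals were derived from the F statistic. CPM were scaled by library total and TMM factor, and sums over marker lists by library total alone. Log2 CPM and pair ratios used a prior count of 2. The replicate term was tested in the same fit. Libraries of the same number resembled each other. Their deviations from group means over 12373 genes correlated by 0.69, 0.53 and 0.33 (across genes, which are not independent replicates). Between libraries of different numbers the correlation was at most 0.054. Centring each group on its own mean pushes these values down, so they are no separate evidence of the pairing. The fit was tried on simulated data with known changes. Alternatives were DESeq2 1.42.0, other scalings and filters, no block, summed gene families and leaving out each pair.

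The genes and lists were chosen with earlier results of these data known. Genes named from the lists were up to the 3 highest and the 3 lowest called values of each list, besides SRF, MRTFA and MRTFB, and the 5 genes nearest to ACTA2. Coordinates and lengths are from GENCODE 44 on hg38 and promoter sequences from RefSeq (GRCh38.p14). The annotation behind the counts is named as a GENCODE release by the study, whereas some symbols, such as LOC107986794, are of RefSeq style. The gene models behind the counts were not used here, so lengths and shares of overlapping bases are approximate.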

Additional observations from a re-analysis of the deposited data

How the results depend on the processing

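Over the alternatives run for single contractile genes, 94 values kept their direction and their side of the threshold, 8 lost a call, 2 gained one and 4 changed sign. TAGLN, TPM2 and VCL stayed called in the same direction with DESeq2 with the block, median-ratio size factors, library totals alone, filterByExpr and no filter. Without the replicate block edgeR called 0 contractile genes higher and 0 lower (2 at an unadjusted p-value under 0.05), 0 genes of the surrounding lists in either direction, and 71 higher and 59 lower of all genes. TPM2 then had -0.28 (adjusted p-value 0.232) and VCL -0.37 (0.147). The block lowered the common dispersion from 0.0193 to 0.00449. DESeq2 without the block, chosen after the data were seen, called 0 contractile genes in either direction (2 at an unadjusted p-value under 0.05), 2 list genes higher and 4 lower, and 388 higher and 461 lower of all genes. With the block, DESeq2 called 1117 genes higher and 1298 lower, against 1885 and 1881 with edgeR. Without a filter on low counts 2 contractile genes were called higher, as CNN1 passed. Leaving out 1 pair at a time gave 1 contractile gene called higher each time and from 1 to 3 lower, from 3 to 6 list genes higher and from 5 to 22 lower, and from 858 to 1652 genes higher and from 945 to 1787 lower over all genes, with the lowest of these counts of lower genes without replicate 1. For these differences the cause was not tested.

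Sign changes were seen only for genes that were not called, TAGLN apart. Leaving out 1 pair at a time gave from -0.032 (without replicate 2) to 0.54 (without replicate 1) for ACTA2, from -0.099 to 0.069 (without replicate 1) for TPM1, from -0.041 (without replicate 3) to 0.052 for MRTFA, from -0.12 to 0.0083 (without replicate 3) for MRTFB, and from -0.032 (without replicate 2) to 0.31 for GATD3A. It gave from -0.093 to -0.014 (without replicate 1) for CNN2 and from -0.15 to -0.054 for MYH9, with no call. Summed with other members of its family CNN1 had -0.16 and TAGLN -0.034, since the sums hold mostly reads of CNN2 and CNN3, and of TAGLN2, and TPM2 summed with 3 other tropomyosins had -0.064 (adjusted p-value 0.534). With library totals alone 10 of 10 contractile genes differed between replicates, and with filterByExpr 8. The 3 libraries per group limit these values, and for a gene that was not called a change within the interval given may still be present.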

Other observations

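Some of the contractile genes had a more abundant relative per length and others did not. In siControl, the cytoplasmic actins ACTB and ACTG1 held 1097 ± 133 and 1075 ± 97.2 CPM per kb of merged exons (SD, n = 3 each), against 1.16 ± 0.484 for ACTA2 and 4.26 ± 0.365 for ACTG2, the enteric smooth muscle actin. TAGLN2 held 277 ± 24.0 CPM per kb against 35.2 ± 18.7 for TAGLN, and CNN3 194 ± 16.7 against 109 ± 12.8 for CNN2 and 17.0 ± 2.43 for CNN1. The heavy chain of smooth muscle myosin, MYH11, had 0.00561 CPM per kb, against 121 ± 17.4 for MYH9 and 5.76 ± 0.238 for MYH10. MYL9, at 385 ± 69.2, exceeded MYL12B at 224 ± 26.0 and MYL12A at 95.9 ± 4.95. This depended on the length used. Per canonical transcript MYL9, MYL12B and MYL12A held 388, 335 and 304 CPM per kb and overlapped within their SD. The place of TPM4 among the tropomyosins depended on it too. Per canonical transcript TPM4 held 555 CPM per kb against 314 for TPM2 and 304 for TPM1. Per merged exons it held 111 against 117 and 25.1.

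Counts were also summed over families, and the actin sum left out the abundant cytoplasmic actins ACTB and ACTG1. ACTG1 was called lower, from 4356 ± 394 CPM in siControl to 3548 ± 387 CPM in siOGT (SD, n = 3 each, log2 fold change -0.30, edgeR adjusted p-value 0.00432). ACTB was not called (log2 fold change -0.083, edgeR adjusted p-value 0.409). The muscle actins ACTA1, ACTA2, ACTC1 and ACTG2 together moved by 0.074 on the log2 scale (SE 0.096 and edgeR adjusted p-value 0.629), in which ACTA2 made up 25.7% of the counts. The 4 tropomyosins together had -0.064 (SE 0.068, 0.534), the 3 calponins -0.16 (SE 0.068, 0.0946), TAGLN with TAGLN2 -0.034 (SE 0.074, 0.789), MYL9 with MYL12A and MYL12B -0.13 (SE 0.075, 0.212) and MYH9 with MYH10 -0.11 (SE 0.070, 0.283). None of the edgeR adjusted p-values of these sums passed the threshold, which does not show that the sums were equal. Over all 10 contractile genes, the summed CPM was 6190.1, 5150 and 4875 in siControl and 5456, 5269 and 4572 in siOGT, with overlapping groups and a rise in pair 2 only.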
